A study of Mus musculus with 12 samples.

Results

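The comparison described here is between the livers of male mice lacking *Yap1* and of wild-type males. It rests on 6 of the 12 libraries of the series, taken by the sex given in their labels: 3 from males labelled Foxa3-Cre YAP1 KO (KO) and 3 from males labelled WT. All mice were on a C57BL/6 background and 3 to 4 months old, and whole liver was profiled by RNA sequencing. In the KO mice *Yap1* is removed by Cre recombinase under the *Foxa3* promoter, which is active in the embryonic gut endoderm that gives rise to hepatocytes and bile duct cells, so the deletion is not limited to 1 cell type of the liver. The labels give no further allele for either group. The 3 WT and 3 KO females of the same design are used to test whether the male response differed from theirs, to compare the sexes within each genotype and as reference levels for sex-dependent genes.

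YAP1 is a co-activator without a DNA-binding domain of its own. Its effect on transcription runs through the TEAD factors, and the Hippo kinases hold it in the cytoplasm by phosphorylation. In the liver it is best known for controlling organ size and for the formation of bile ducts. The male mouse liver has a further layer of regulation, since pulses of growth hormone, acting through STAT5, keep up a set of male-typical genes, and the steadier hormone level of females keeps up another set.

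Each male library held 14321 to 15271 genes with a value above 0. The deposited values are TPM (transcript abundances corrected for length and scaled to a fixed sum), which keep no record of depth, so read totals are unknown and the 3 libraries per group set the precision. Across tested genes, log2 values correlated at 0.965 to 0.988 within a group and at 0.894 to 0.932 between groups. The first principal component carried 68.4% of the variance and separated the genotypes. The second carried 14.7% and set WT male replicates 2 and 3 apart from each other (30.2 and -28.2). It also set KO male replicate 3 (22.3) apart from KO male replicates 1 and 2 (-8.39 and -16.7). The Y-linked *Uty*, *Kdm5d*, *Ddx3y* and *Eif2s3y*, 4 genes, summed to between 52.5 and 101 TPM in the 6 males. The hepatocyte markers, *Alb* among them, summed to between 101241 and 123725 TPM. Ranges were similar in both genotypes on the values as deposited only. The median log2 fold change of the hepatocyte markers, KO minus WT, was 0.12 as deposited and -0.43 after the rescaling described below. The label of WT male replicate 2 carries a library number from another series than the other 5, and the labels do not say what that number marks. The labels tell replicates apart by an animal number and say no more of how they were taken, so p-values measure only the spread between these samples.

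*Yap1* (ENSMUSG00000053110, chromosome 9, 7931999 to 8004596, minus strand) was measured first, as the check of the labels. Its level was 27.5, 34.9 and 34 TPM in WT males 1 to 3 and 1.39, 0.994 and 1.8 TPM in KO males 1 to 3. The lowest WT value lay far above the highest KO value, and every KO library kept a low level. The mean fell from 32.1 ± 4.06 to 1.4 ± 0.404 TPM, each with its SD over 3 mice (-4.23 on the log2 scale, SE 0.185, limma adjusted p = 1.01e-05; -3.8 on the deposited scale). The exact permutation test of the 6 values gave a two-sided p of 0.1, the smallest that 3 against 3 can reach. In whole liver, fewer cells of a type and less RNA per cell cannot be told apart, here or for any gene below.

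Of 25676 genes, 12076 had a mean of at least 0.5 TPM in the 6 males and were tested, and 8974 were listed at 0 in all 6. TPM share a fixed sum, so the scale matters in this comparison. The major urinary protein (*Mup*) genes alone held 13.3 ± 2.93% of TPM in WT males and 0.560 ± 0.239% in KO males (SD, n = 3; exact permutation p = 0.1, adjusted over 4 library measures 0.133), and the 20 most abundant genes of each library together held 38.6 ± 1.2% and 33.5 ± 2.71%. On the values as deposited the median log2 fold change, KO minus WT, was 0.45. After each library was divided by its median ratio to the others (median-of-ratios rescaling) it was -0.04. The shift of 0.48 between the scales exceeded the median standard error of a gene, 0.194. Levels below are TPM as deposited, listed for replicates 1, 2 and 3 of a group. Fold changes are on the log2(TPM + 1) scale after rescaling unless the deposited scale is named, and that scale understates the changes of low genes.

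After rescaling, 2109 genes (17.5%) passed a limma adjusted p of 0.05. Of them 1329 (11.0% of genes tested) rose and 780 (6.46%) fell in KO males, and 3802 had an unadjusted p under 0.05. On the deposited scale 3993 genes (33.1%) were called higher and 296 (2.45%) lower. Thus 63.0% of the calls were rises after rescaling and 93.1% as deposited. The call and direction were the same on both scales for 1624 genes, made up of 1329 rises and 295 falls, and 0 genes were called in opposite directions. All 3 KO values lay on 1 side of all 3 WT values, after rescaling, for 4526 genes (37.5%). Changes of at least 1 on the log2 scale were seen in 819 rises and 358 falls, and of at least 3 in 72 rises and 49 falls. Without KO male replicate 1, 1256 genes passed, 844 higher and 412 lower, and without WT male replicate 1 the falls numbered 460. Counts given below as without a library come from the same test with that library alone left out.

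**Figure D1:**
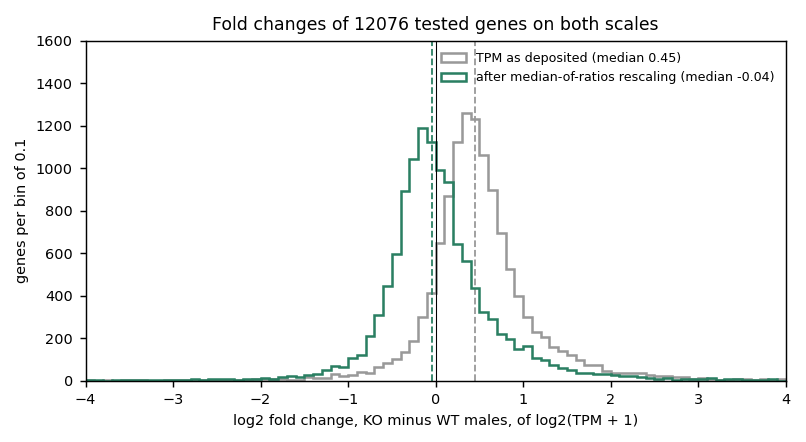
Number of genes (vertical axis, bins of 0.1) by log2 fold change, KO minus WT males (horizontal axis), for the 12076 tested genes on both scales. Dashed lines mark the medians, 0.45 as deposited and -0.04 after rescaling, and fold changes beyond 4 in either direction lie outside the axis.

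The largest rise called on both scales was *Ly6d* (ENSMUSG00000034634, chromosome 15, 74762056 to 74763620, minus strand), a surface protein of the Ly6 family known from stratified epithelium and B-cell progenitors. Its level was 2.57, 0.876 and 2.16 TPM in the WT males and 658, 905 and 559 TPM in the KO males (7.5 on the log2 scale, SE 0.299, limma adjusted p = 8.46e-06). *Lcn2*, which encodes the iron-siderophore binding lipocalin 2, stood at 15.8, 67 and 6.81 TPM in WT and 1849, 2252 and 1556 TPM in KO (5.93 on the log2 scale, SE 0.726, limma adjusted p = 0.00137). The WT males varied widely for *Lcn2*, with replicate 2 highest, and all KO values lay above them. *Sprr1a*, a cornified envelope precursor, was 0, 0 and 0.095 TPM in WT and 63.5, 51.8 and 87.3 TPM in KO (log2 fold change 5.72), and *Gipc2*, a PDZ-domain adaptor, was 0, 0 and 0.0959 and 62.7, 72.1 and 51.8 TPM (5.62). Both were close to undetected in WT livers.

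The chemokine *Cxcl14* rose evenly, from 3.09, 3.79 and 1.8 TPM in WT to 173, 172 and 159 TPM in KO (4.96 on the log2 scale, SE 0.254, limma adjusted p = 1.88e-05). The other 3 of the 8 largest rises belong to enzyme families. *Cyp2a4*, a steroid hydroxylase typical of female liver, rose by 5.94, and the glutathione transferase genes *Gm3776* and *Gsta1*, neighbours on chromosome 9, rose by 5.44 and 5.0. Near-identical members of these families can share reads, so the split between single members is uncertain, and the use of strand in counting is not given in the sources used here.

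The 8 largest falls were all *Mup* genes, which encode pheromone-carrying urinary lipocalins made by the liver, more in males. *Mup7* (ENSMUSG00000073842, chromosome 4, 60066469 to 60070475, minus strand) was 22793, 33224 and 46491 TPM in WT and 58.3, 5.29 and 4.11 TPM in KO (-11.89 on the log2 scale, SE 0.878, limma adjusted p = 0.000110). *Mup15* was 917, 7858 and 3449 TPM in WT and 1.61, 0 and 1.12 TPM in KO (-11.08), and *Mup12*, the most even of the 8 between libraries, was 767, 974 and 1229 and 0.345, 0.463 and 0 TPM (-9.92, SE 0.217). Near-identical copies can share reads here too. All 19 tested *Mup* genes fell, with a median of -8.49 (-7.91 as deposited), where the median of all tested genes was -0.04. *Mup20*, the gene of the male pheromone darcin, changed least. It was 7821, 8091 and 13937 TPM in WT and 3775, 7848 and 4097 TPM in KO (-1.53 on the log2 scale, SE 0.375, limma adjusted p = 0.0269), and its call was lost on the deposited scale (-0.95) and when single libraries were left out (limma adjusted p 0.0559 to 0.105 without KO male 1, KO male 3, WT male 1, WT male 2 or WT male 3).

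The cluster is a set of recent copies, and the bases just upstream of its start sites show how close the copies are. RefSeq windows (GRCm38.p6) were matched for 12 of the 19 tested members. Over the stretch that aligned to the 250 bases upstream of *Mup15*, identity was 98.8% for *Mup19*, 98.4% for *Mup17*, 93.2% for *Mup18* and 73% for *Mup21*. These genes fell by log2 fold changes of -10.31, -10.34, -7.3 and -6.45, with -11.08 for *Mup15*. The size of the fall did not follow identity in every copy: *Mup2* at 96.4% had -7.7, *Mup14* at 92.5% had -9.52 and *Mup3* at 75% had -7.55, all 3 named after their values were seen. *Mup18* and *Mup21* were picked to show more distant copies, after their values were seen. The 120 bases before each RefSeq start are printed 5′ to 3′ on the minus strand, and capitals mark bases that differ from *Mup15* or lie beyond the aligned stretch.

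Mup15 (chr4:61439705-61439824): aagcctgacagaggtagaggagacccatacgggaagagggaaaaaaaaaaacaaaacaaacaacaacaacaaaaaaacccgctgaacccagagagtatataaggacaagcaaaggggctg
Mup17 (chr4:61595833-61595952): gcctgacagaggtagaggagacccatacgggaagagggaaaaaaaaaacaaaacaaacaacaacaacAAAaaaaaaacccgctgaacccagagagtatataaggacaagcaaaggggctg
Mup19 (chr4:61782225-61782344): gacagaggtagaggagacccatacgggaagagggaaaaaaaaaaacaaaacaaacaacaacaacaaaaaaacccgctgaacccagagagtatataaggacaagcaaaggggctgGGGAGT
Mup18 (chr4:61674095-61674214): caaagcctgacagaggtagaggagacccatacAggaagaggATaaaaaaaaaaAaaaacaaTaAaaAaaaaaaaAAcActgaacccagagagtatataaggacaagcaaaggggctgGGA
Mup21 (chr4:62150842-62150961): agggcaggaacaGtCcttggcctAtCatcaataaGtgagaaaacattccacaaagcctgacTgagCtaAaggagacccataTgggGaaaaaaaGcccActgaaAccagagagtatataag

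Outside the *Mup* cluster, large falls included male-typical metabolic enzymes and a transporter. *Hsd3b5*, a male-specific 3-ketosteroid reductase, was 347, 270.0 and 298 TPM in WT and 0.961, 0.0691 and 0.296 TPM in KO (-8.11 on the log2 scale, SE 0.223, limma adjusted p = 1.83e-06). *Sult2a8*, a sulfotransferase, was 429.9, 423 and 671 and 2.22, 1.12 and 1.41 TPM (-8.05), and *Slco1a1*, an organic anion uptake transporter, was 198, 193 and 267 and 1.15, 0.422 and 0.905 TPM (-7.31). *Elovl3*, a fatty acid elongase, was 494, 536 and 60.3 TPM in WT and 0.915, 0.597 and 0.232 TPM in KO (-7.7, SE 0.78). WT male replicate 3 had far less *Elovl3* than the other WT males, and still lay well above all KO males.

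**Figure D2:**
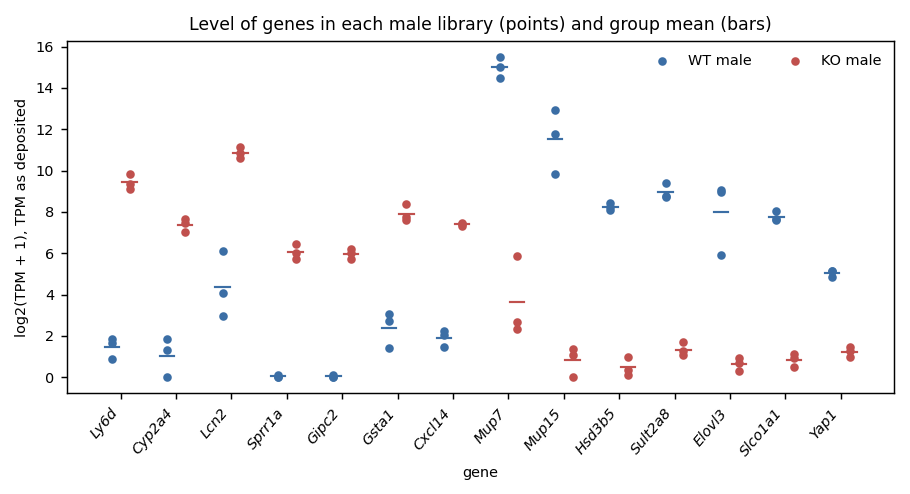
Level as log2(TPM + 1), TPM as deposited (vertical axis), of 14 genes in each male library (points; WT blue, KO red), with group means as bars. Every KO point of these genes lies on the opposite side of all WT points of its gene, from *Ly6d* (1.87 to 707 TPM on average) to *Yap1* (32.1 to 1.4 TPM).

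Genes with a known sex bias in mouse liver changed on both the male and the female side. Of 35 tested genes listed as higher in male liver, 30 fell and 1 rose (*Tff3*, 1.19, chosen after its values were seen; the rises numbered 0 without KO males 1 or 2 or WT males 1 or 3 and 2 without WT male 2). In this list 88.6% were called, beside 17.5% of all genes, with 2 higher and 28 lower as deposited. The list, which contains 4 *Mup* genes, had a median of -3.06 (-2.5 as deposited). Of 34 tested genes listed as higher in female liver, 15 rose and 2 fell (50% called, beside 17.5% of all genes). As deposited 21 were higher and 2 lower, beside 33.1% of all genes called higher. The median of this list was 0.85 (1.33 as deposited). A further 7 of its genes were under the 0.5 TPM filter and 2 were listed at 0 in all 6 males, so this count covers members with a measurable level in males.

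*Cyp4a12a* and *Cyp4a12b* are the fatty acid hydroxylases most typical of male liver. *Cyp4a12a* was 532, 446 and 327 TPM in WT males and 4.3, 8.93 and 13.7 TPM in KO males (-6.08 on the log2 scale, SE 0.324, limma adjusted p = 2.30e-05), and *Cyp4a12b* was 149, 103 and 125 and 8.17, 10.4 and 18.6 TPM (-3.85). Both remained above the WT females, at 0.371 ± 0.343 and 0.224 ± 0.209 TPM (SD, n = 3).

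In the other direction, *Cyp2a4* was 1.47, 0 and 2.6 TPM in WT males and 178, 130.3 and 199 TPM in KO males, and the females had 2033 ± 847 (WT) and 482 ± 273 TPM (KO). The KO males thus lay far above WT males and below WT females. *Sult1e1*, the estrogen sulfotransferase, was 0.294, 1.05 and 0 TPM in WT males and 28.2, 26.3 and 7.85 TPM in KO males (3.43), and *Atp6v0d2*, a proton pump subunit, was 0.671, 0.15 and 0.817 and 20.8, 20.5 and 16.9 TPM (3.37). In these mice neither gene was higher in WT females than in KO males, at 0.427 ± 0.289 and 12.9 ± 4.15 TPM. *Slc22a26* and *A1bg*, named after their values were seen, rose in the KO males to 11.6 ± 3.42 and 3.89 ± 0.524 TPM from 0.152 ± 0.133 and 0.10 ± 0.0549 TPM. *Sult2a2*, also named after its values were seen, was listed at 0 in every WT male and was 5.88, 4.77 and 2.32 TPM in the KO males. WT females were higher in mean level for *Slc22a26*, *A1bg* and *Sult2a2*, at 144 ± 16.3, 639 ± 515 and 334 ± 132 TPM.

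Other female-typical genes stayed near 0 in KO males. *Sult3a1* was listed at 0 in all 6 males and stood at 257 ± 22.9 TPM in WT females. *Cyp3a41a*, named after its values were seen, was 0.0885, 0 and 0.966 TPM in WT males and 1.03, 0.936 and 3.51 TPM in KO males (0.79, limma adjusted p = 0.175), against 2188 ± 205 TPM in WT females. *Cyp2b13* was below the filter, at 0.0979 ± 0.13 TPM in WT males and 0.643 ± 0.161 TPM in KO males. The female-biased list therefore held genes at high, low and undetected levels in the KO males.

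The growth hormone and STAT5 list, tested because it governs sex bias in liver, had 5 falls and 1 rise among 29 (20.7% called, near the 17.5% of all genes tested; 10 higher and 4 lower as deposited). The rises numbered 0 without KO male 1 or WT male 3 and 2 without WT male 2. *Ghr*, the growth hormone receptor, was 200.5, 232 and 223 TPM in WT and 84.1, 91.8 and 115 TPM in KO (-1.75 on the log2 scale, SE 0.158, limma adjusted p = 0.000292). *Igfals*, the acid-labile subunit of circulating IGF complexes, was 84.8, 79.8 and 85.1 and 22.4, 27.1 and 54.1 TPM (-1.91), and *Igfbp3*, another part of those complexes, was 9.18, 7.65 and 6.55 and 3.47, 2.29 and 1.8 TPM (-1.78). The groups did not overlap for these 3 genes. *Jak2*, the kinase bound to the receptor, was 6.13, 5.47 and 5.87 TPM in WT and 9.79, 9.41 and 10.1 TPM in KO (0.15, limma adjusted p = 0.521; 0.66 and 0.0183 as deposited). *Socs2*, a feedback inhibitor and STAT5 target, rose by 1.32 (limma adjusted p = 0.0259), and that call was lost when some libraries were left out (0.0666 to 0.0825 without KO male 1, KO male 3, WT male 2 or WT male 3).

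The male effect was compared directly with the female one by the interaction term of a model over all 12 libraries. Of 12278 genes, 103 (0.839%) passed a limma adjusted p of 0.05 and 931 an unadjusted p under 0.05. The KO minus WT difference was more positive in males for 55 and more negative for 48. Without WT male replicate 3 the count was 175. Of the 90 interaction genes also tested within males, 21 rose, 45 fell and 24 did not pass there. Among the 5 with the smallest adjusted p in each direction, the positive ones were *Sult3a1* (8.08), *Cyp3a44* (7.99), *Cyp3a41b* (7.32), *Sult3a2* (4.61) and *Cyp2b13* (6.84), all under the 0.5 TPM filter in males. These 5 entered the test through their level in females, no fall could be measured in males, and their interaction is close to the fall in females with its sign turned (for *Sult3a1* a female difference of -8.08). Their levels in females were 257 ± 22.9, 266 ± 59.1, 169.9 ± 46.1, 21.3 ± 2.7 and 296 ± 40.5 TPM in WT and far lower in KO, *Cyp2b13* being the highest of the 5 at 3.45 ± 1.15 TPM. The negative ones were *Mup12* (-4.96), *Cyp4a12b* (-5.18), *C6* (-3.71), *Cyp4a12a* (-6.24) and *Mup20* (-5.20).

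*C6*, a component of the complement membrane attack complex, differed between the sexes through the female groups. It was 143, 208 and 148 TPM in WT males and 192, 241 and 307 TPM in KO males (-0.01, limma adjusted p = 0.973), but 8.07, 8.72 and 9.39 TPM in WT females and 157, 159.8 and 159 TPM in KO females. *Mup20* in females stood at 104 ± 11.1 TPM without the deletion and 1692 ± 174 TPM with it, where the males had the lower mean in KO. *Cyp4a12b* was also higher in KO than in WT females, at 2.63 ± 1.38 against 0.224 ± 0.209 TPM (1.33, limma adjusted p = 0.00177), while it fell in males. For *Cyp4a12a* both female groups were too low for a fall to be measured, at 0.371 ± 0.343 TPM in WT and 0.648 ± 0.429 TPM in KO.

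The same model gave the difference between males and females within each genotype. WT males differed from WT females in 538 genes (4.38%), with 231 to 298 without WT female 1, WT female 2, WT male 1 or WT male 2 and 1469 without WT male 3, and KO males differed from KO females in 10 genes (0.0814%), between 6 and 11 with single libraries left out. Of the 35 male-biased genes tested over the 12 libraries, 29 were higher in males among WT mice and 2 among KO mice, with median differences of 2.38 and 0.34. Of the 42 female-biased genes, 37 were higher in females among WT mice and 1 among KO mice, with medians of -3.89 and -0.39 (male minus female). With single libraries left out the WT counts were 26 to 29 and 34 to 37, and the KO counts were 0 to 2 in either list, with 0 in both without KO male 2. The WT males enter both this comparison and the genotype effect, so the values are set side by side and no relation between them is drawn. The direct test of the change in sex difference is the interaction, which 21 of the 35 male-biased genes passed with a negative sign and 27 of the 42 female-biased genes with a positive sign, beside 0.839% of all genes in either direction. Of the 27, 7 were under the 0.5 TPM filter in males, where no fall could be measured. Of the 21, 1 averaged under 0.5 TPM in the females, where the same holds. For these the floor fixed the sign. Both counts are minimums, because WT levels near 0 also left little room for a fall in other genes of the 2 lists. Among these were *Cyp4a12a* and *Cyp4a12b* in females, at 0.371 and 0.224 TPM in WT.

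**Figure D3:**
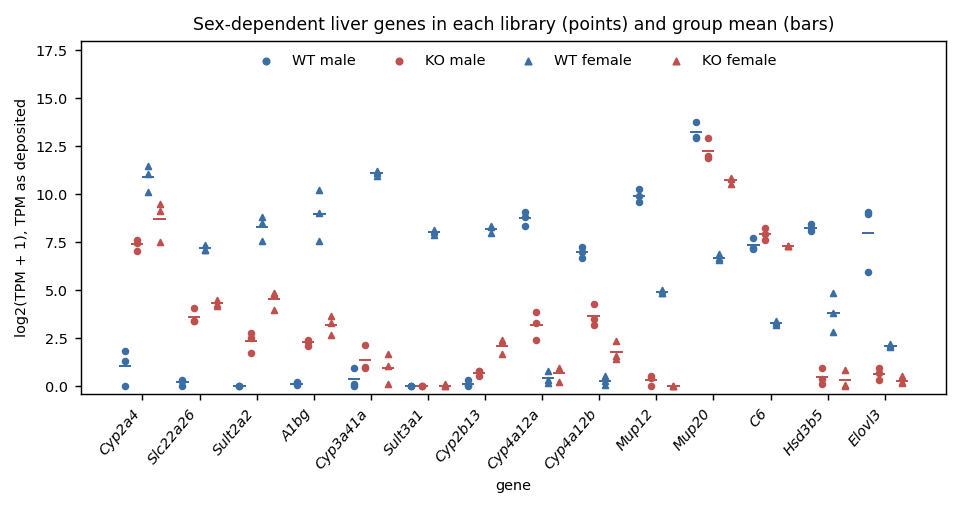
Level as log2(TPM + 1), TPM as deposited (vertical axis), of 14 sex-dependent genes in all 12 libraries (points), with group means as bars; circles are males, triangles females, blue WT and red KO. The KO males stand between WT males and WT females for *Cyp2a4* (169 TPM), and at or near the floor for *Hsd3b5* (0.442 TPM), *Elovl3* and *Mup12*.

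The upstream windows of the sex-dependent genes that changed were searched for the STAT motif TTCNNNGAA, which reads the same on both strands, and on both strands for the TEAD motif GGAATG. The letters GAA belong to both, so matches can overlap. In the 250 bases before the start, the STAT motif was found in 2 of 25 windows of male-biased genes that fell (23 of the 30 had windows) and in 2 of 15 windows of female-biased genes that rose (11 of the 15), against 7.02% of all 32851 windows and 5.99% of the 12228 windows of genes tested in males. The TEAD motif was found in 4 of 25 and 2 of 15, against 12.6% and 10.8%. A match describes letters only. The matched stretches of *Slc22a26* and *A1bg*, which rose, and of *Keg1*, which fell (-3.06), was chosen after its values were seen and has a pair of matches, are shown from RefSeq (GRCm38.p6) with the motif in capitals.

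Slc22a26 (chr19:7802780-7802828, minus strand): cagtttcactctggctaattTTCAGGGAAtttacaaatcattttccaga
A1bg (chr15:60921326-60921374, minus strand): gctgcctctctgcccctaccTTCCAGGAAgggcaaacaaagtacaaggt
Keg1 (chr19:12695597-12695645, plus strand): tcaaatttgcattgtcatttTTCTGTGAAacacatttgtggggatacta
Keg1 (chr19:12695663-12695711, plus strand): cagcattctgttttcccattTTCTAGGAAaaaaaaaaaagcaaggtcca

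Bile acid genes of uptake and export moved in both directions, and the calls in synthesis were all falls after rescaling. Of 17 synthesis and conjugation genes, 9 fell and 0 rose, with a median of -0.80 (-0.29 as deposited, with 4 lower and 2 higher; 52.9% called, beside 17.5% of all genes). The falls numbered 5 without KO male 1, and the rises numbered 1 without WT male 3. *Cyp7b1*, the oxysterol hydroxylase of the alternative pathway and itself a male-biased gene, was 326, 515 and 371 TPM in WT and 11, 12.5 and 10.9 TPM in KO (-5.55 on the log2 scale, SE 0.235, limma adjusted p = 9.64e-06). *Cyp8b1*, which commits bile acids to the cholic acid branch, was 115, 210.3 and 190.4 and 33.7, 29 and 12.5 TPM (-3.35 on the log2 scale, SE 0.436, limma adjusted p = 0.00181). *Akr1c6* and *Scp2* fell too (-1.31 and -1.21; -0.73 and -0.63 as deposited).

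*Cyp7a1*, the rate-limiting enzyme of the classical pathway, went the other way in mean. It was 6.05, 5.02 and 36.7 TPM in WT and 39.6, 106 and 66.5 TPM in KO. WT male replicate 3 overlapped with the KO males once libraries were rescaled, and the difference of 1.97 (SE 0.658) had a limma adjusted p of 0.0790. Without that library it was 2.79 (limma adjusted p = 0.00286), and as deposited it was 2.51 (limma adjusted p = 0.0158). Of 10 tested sensors and regulators, 2 fell (20% called, beside 17.5% of all genes; 2 higher and 1 lower as deposited). *Nr0b2*, the repressor SHP induced by the bile acid receptor, was 110.0, 69.4 and 55.7 TPM in WT and 42.4, 43 and 39.5 TPM in KO (-1.41, limma adjusted p = 0.00797). *Nr1h4*, the receptor FXR itself, was 64.7 and 67.1 TPM on average (-0.48, limma adjusted p = 0.219).

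Of 7 uptake genes, 4 fell and 1 rose (71.4% called, beside 17.5% of all genes; 2 higher and 4 lower as deposited). The rise was *Ephx1*, microsomal epoxide hydrolase (0.67, named after its values were seen), and the rises numbered 0 without KO males 1 or 2 or WT males 1 or 2. Besides *Slco1a1*, *Slc10a1* (NTCP, the main sodium-dependent uptake carrier) was 381, 335 and 422 TPM in WT and 182, 211 and 205 TPM in KO (-1.5 on the log2 scale, SE 0.153, limma adjusted p = 0.000556), and *Slco1b2* was 518, 551 and 553 and 219, 364 and 263 TPM (-1.54). No KO value reached the WT range in either gene. Of 13 export genes, 5 rose and 3 fell (61.5% called, beside 17.5% of all genes; 5 higher and 1 lower as deposited). The rises numbered 3 without KO male 1 or WT male 1. *Slc51b*, a subunit of the basolateral bile acid exporter, was 0.386, 0.115 and 0.108 TPM in WT and 28.7, 14.7 and 22.8 TPM in KO (3.89 on the log2 scale, SE 0.264, limma adjusted p = 6.76e-05). *Abcb1a*, a multidrug pump, was 0.894, 0.245 and 0.827 and 7.49, 6.71 and 12.7 TPM (2.2), and *Abcb4*, the phospholipid floppase of the canaliculus, was 81.8, 109.6 and 95.4 and 260.1, 284 and 415 TPM (1.14). *Abcb11*, the bile salt export pump, was 229, 215 and 177 and 243, 268 and 373 TPM (-0.09, limma adjusted p = 0.792), and the exporters that fell were *Abcg8*, a subunit of the sterol exporter (-1.76), *Abcg2* (-0.87) and *Abcc6* (-0.67), the last 2 named after their values were seen.

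**Figure D4:**
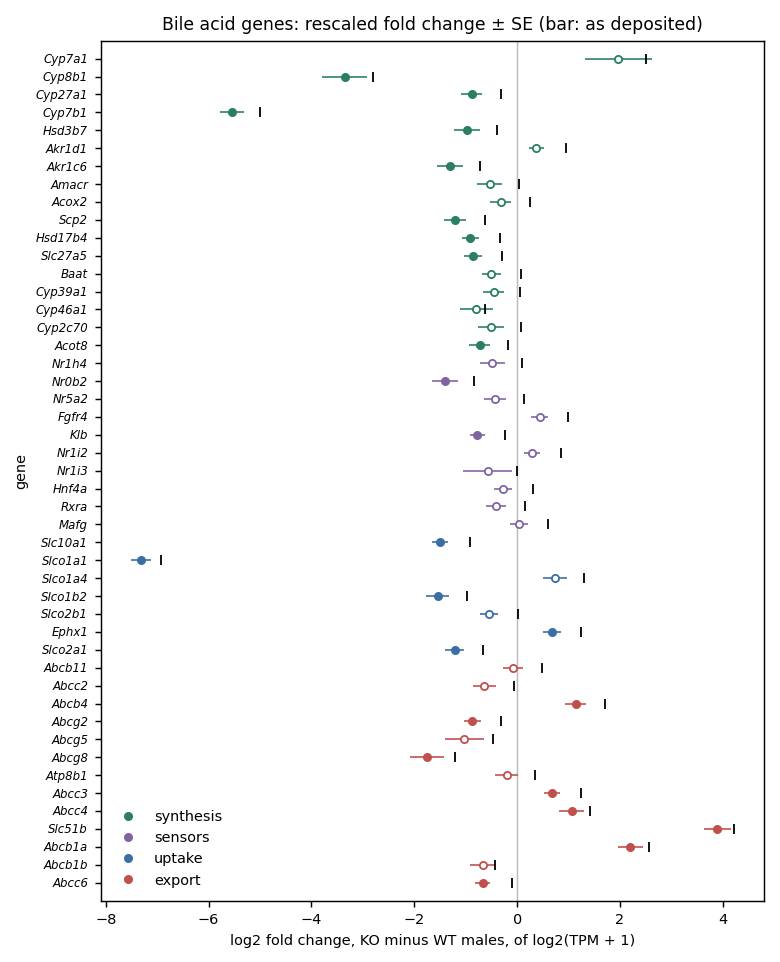
Log2 fold change after rescaling with its standard error (horizontal axis) of 47 bile acid genes (vertical axis) by role; filled points passed a limma adjusted p of 0.05, open points did not, and the black tick is the value as deposited. *Cyp7b1* (-5.55) and *Slco1a1* (-7.31) lie farthest to the left and *Slc51b* (3.89) farthest to the right.

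Drug- and steroid-metabolising families fell in part and rose in part. In the Cyp2 family 14 of 32 tested genes fell and 4 rose (56.2% called, beside 17.5% of all genes; 7 higher and 10 lower as deposited). *Cyp2f2*, typical of periportal hepatocytes, was 1664, 1307 and 1473 TPM in WT and 149.8, 88 and 139 TPM in KO (-4.15 on the log2 scale, SE 0.234, limma adjusted p = 2.80e-05), and *Cyp2d9*, a male-typical steroid hydroxylase, was 1448, 1425 and 1674 and 190.2, 251 and 288 TPM (-3.23). In the Cyp3a and Cyp4 families 8 of 17 fell and 2 rose, *Cyp4f16* (2.19) and *Cyp3a11* (58.8% called; 3 higher and 6 lower as deposited). The rises numbered 1 without KO males 1 or 2 or WT males 1, 2 or 3. *Cyp3a11*, the main xenobiotic hydroxylase of the family, was 3371, 2468 and 2353 TPM in WT and 6344, 7409 and 7547 TPM in KO (0.82, limma adjusted p = 0.0491; 1.39 as deposited), a call that was lost when libraries were left out (limma adjusted p 0.0819 to 0.137 without KO male 1, KO male 2, WT male 1, WT male 2 or WT male 3).

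Of 24 sulfotransferases and glucuronosyltransferases, 13 fell and 3 rose (66.7% called, beside 17.5% of all genes; 5 higher and 11 lower as deposited). *Ugt2b38* and *Ugt2b1* fell (-4.59 and -3.67). Steroid metabolism had 10 falls and 0 rises among 17 genes, with *Hsd11b1*, which regenerates glucocorticoid in liver, at 413, 234 and 312 TPM in WT and 131, 112 and 87.9 TPM in KO (-2.08). The median of the steroid list was -0.77 after rescaling and -0.20 as deposited, with 4 higher and 7 lower as deposited (58.8% called after rescaling, beside 17.5% of all genes). Glutathione transferases and targets of the oxidative stress factor NRF2 moved in both directions: 12 of 35 rose and 3 fell (42.9% called, beside 17.5% of all genes; 21 higher and 2 lower as deposited). *Gstm3* was 120.0, 55.3 and 122 TPM in WT and 3550.4, 2871 and 2627 TPM in KO (4.41 on the log2 scale, SE 0.31, limma adjusted p = 8.30e-05), and *Nqo1*, a quinone reductase and standard NRF2 target, was 2.99, 3.57 and 5.91 and 38.8, 35.2 and 34.4 TPM (2.37). The male-biased member *Gstp1*, chosen after its values were seen, fell (-2.26).

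Of 18 tested members of the Hippo pathway 2 rose, *Wwtr1* and *Amot*, and 1 fell, *Yap1* itself, 16.7% in all and near the 17.5% of all genes tested (5 higher and 1 lower as deposited). The rises numbered 1 without KO males 1 or 3 or WT males 1 or 2, and the falls numbered 2 without KO male 3. *Wwtr1*, which encodes the YAP1 paralog TAZ, was 5.11, 4.89 and 6.12 TPM in WT and 14.4, 14.5 and 15.3 TPM in KO (0.79 on the log2 scale, SE 0.146, limma adjusted p = 0.00821; 1.31 as deposited). *Amot*, a scaffold that binds YAP1, rose by 0.97, and its call was lost when libraries were left out (limma adjusted p 0.0544 to 0.0883 without KO male 1, KO male 2, KO male 3, WT male 1 or WT male 2). Of 18 listed targets of YAP1 and TEAD, 5 rose and 1 fell, (33.3% called; 6 higher and 1 lower as deposited), with a median of 0.06 (0.49 as deposited), beside -0.04 and 0.45 for all tested genes. *Ccn1* was 43.8, 20.8 and 14.4 TPM in WT and 21.4, 27.6 and 13.3 TPM in KO, and *Ccn2* was 5.7, 2.76 and 4.09 and 9.89, 3.41 and 6.22 TPM. Both of these classical targets overlapped between the genotypes (-0.78 and 0.01, limma adjusted p = 0.262 and 0.993).

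The targets that rose were *Nt5e* (2.07), an ectonucleotidase, *Axl* (1.91), a receptor tyrosine kinase, *Ccdc80* (1.69), a matrix protein, and *Myof* and *Ajuba* (1.06 and 1.0), both named after their values were seen. *Axl* was 3.09, 4.05 and 3.77 TPM in WT and 25.3, 15.8 and 33 TPM in KO, with KO male replicate 2 lowest of the KO males and still above all WT males. The target that fell was *Igfbp3*, given above with the growth hormone genes. *Axl* and *Ccdc80* are also made by macrophages and mesenchymal cells, whose markers moved in the same libraries (below), and the part of those cells in these values was not tested.

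Bile duct genes did not move as a block. Of 16 tested markers 5 rose and 0 fell (or 1 without KO male 3; 31.2% called, beside 17.5% of all genes; 9 higher and 0 lower as deposited), with a median of 0.30 (0.64 as deposited), and 6 more, *Krt7* among them, were below 0.5 TPM. *Spp1*, osteopontin, was 33.5, 21.9 and 23.1 TPM in WT and 622, 591 and 536 TPM in KO (3.88 on the log2 scale, SE 0.209, limma adjusted p = 2.36e-05). *Prom1* was 0.373, 0.35 and 0.11 and 11.8, 9.26 and 18.5 TPM (3.08), and *Cldn7*, a claudin, was 0.187, 0.125 and 0.275 and 7.81, 12 and 12.7 TPM (2.96). *Krt19*, the keratin that defines mature bile ducts, was 2.26, 1.29 and 0.874 TPM in WT and 0.81, 1.36 and 1.53 TPM in KO, with overlapping groups (-0.45, limma adjusted p = 0.238). The summed level of the marker list was 106 to 124 TPM in WT and 732 to 776 TPM in KO, where *Spp1* made up most of the KO sum. Among 9 biliary transcription factors 1 rose (11.1% called, beside 17.5% of all genes; 3 higher and 0 lower as deposited): *Elf3*, an epithelial ETS factor, was 0.348, 0.506 and 0.658 TPM in WT and 41.6, 35.2 and 88 TPM in KO (4.71 on the log2 scale, SE 0.275, limma adjusted p = 3.29e-05), with KO male replicate 3 highest. *Sox9* was 4.92, 5.89 and 3.0 and 10.4, 7.72 and 14.5 TPM (0.57, limma adjusted p = 0.202; 1.08 and 0.0172 as deposited).

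Epithelial genes associated with liver injury form a list that shares *Krt19*, *Krt7*, *Cldn4* and *Cldn7* with the bile duct markers. Of 24 tested, 14 rose and 0 fell (median 1.2, 1.63 as deposited, with 18 higher and 0 lower as deposited; 58.3% called, beside 17.5% of all genes). The hepatocyte keratins *Krt8* and *Krt18* were 279, 295 and 224 and 315, 374 and 215 TPM in WT and 1567, 1401 and 2262 and 1418, 1216 and 1837 TPM in KO (2.11 and 1.74). *Anxa2*, a membrane-binding annexin, was 14.7, 10.8 and 7.18 and 148, 134 and 181 TPM (3.19), and *S100a11*, a calcium-binding protein, was 8.56, 6.86 and 6.89 and 154, 135 and 101 TPM (3.4 on the log2 scale, SE 0.237, limma adjusted p = 8.15e-05). For each of these 4 genes all KO males lay above all WT males.

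Macrophage markers rose almost throughout, 20 of 23 after rescaling (87% called, beside 11.0% of all genes called higher). As deposited 22 were higher, beside 33.1% of all genes. The median of these markers was 1.86 (2.4 as deposited). Their summed level was 155 to 204 TPM in WT and 1231 to 1652 TPM in KO. *Clec4f*, specific to resident Kupffer cells, was 24.5, 18.9 and 22.3 TPM in WT and 88.8, 78.8 and 146 TPM in KO (1.6 on the log2 scale, SE 0.195, limma adjusted p = 0.00134). *Cd14*, the lipopolysaccharide co-receptor, was 5.06, 2.58 and 1.07 and 149.6, 139 and 145 TPM (4.85 on the log2 scale, SE 0.369, limma adjusted p = 0.000126), and *Marco*, a scavenger receptor, was 2.27, 1.69 and 2.54 and 69.2, 34.8 and 44.2 TPM (3.46). *Trem2*, a lipid receptor of scar-associated macrophages, was 0.558, 0.143 and 0.134 and 16.6, 10 and 11.9 TPM (3.09). *Timd4*, of long-resident Kupffer cells, was 1.55, 2.06 and 2.08 and 5.78, 3.89 and 5.02 TPM, without overlap but short of the threshold after rescaling (0.59, limma adjusted p = 0.0816; 1.02 and 0.00546 as deposited).

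Markers of other blood-borne cells were mostly too low to test. Of 4 tested neutrophil markers 0 passed the limma test after rescaling (0 at an unadjusted p under 0.05), and 8 more were below 0.5 TPM, with sums over all of them of 0.449 to 22.6 TPM in WT and 14 to 36.1 TPM in KO. Of 6 tested lymphocyte markers 2 rose, *Jchain* and *Ptprc*, and 0 fell (33.3% called, beside 17.5% of all genes; 5 at an unadjusted p under 0.05; 4 higher and 0 lower as deposited), 10 more were below 0.5 TPM and 2 were listed at 0, with sums of 6.48 to 14.6 and 25.1 to 32.1 TPM. The rises numbered 0 without KO male 1 and 1 without KO male 2 or WT males 2 or 3, and the falls numbered 1 without WT male 3. *S100a8*, a neutrophil calprotectin subunit, was 3.0, 5.2 and 0 TPM in WT and 10.5, 9.48 and 3.07 TPM in KO (1.02, limma adjusted p = 0.396). *Cd3e* of T cells was 0.686, 0.39 and 0.262 and 0.873, 0.22 and 0.942 TPM. *Lcn2*, which neutrophils also make, stands beside KO means of 7.68 TPM for *S100a8* and 11.9 TPM for *S100a9*. The part of neutrophils in the *Lcn2* value was not tested.

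Matrix genes rose in 17 of 32 cases and fell in 0 (53.1% called, beside 17.5% of all genes; 29 higher and 0 lower as deposited), with a median of 0.87 (1.35). The rises numbered 11 without KO male 1 or WT males 1 or 3. *Col1a1* of fibrillar collagen was 3.18, 1.85 and 2.28 TPM in WT and 71.3, 33.5 and 60.5 TPM in KO (3.49 on the log2 scale, SE 0.291, limma adjusted p = 0.000190), *Col3a1* was 8.13, 6.12 and 7.21 and 68.4, 36.6 and 73.4 TPM (2.3), and *Nid1*, a basement membrane linker, was 3.13, 2.85 and 2.53 and 53.7, 40.7 and 106 TPM (3.52). KO male replicate 2 was the lowest KO male for *Col1a1* and *Col3a1*, far above the WT males. Of 22 genes for matrix proteases, their inhibitors and TGF-beta signalling, 13 rose and 0 fell (59.1% called; 19 higher and 0 lower as deposited). *Timp1*, a protease inhibitor, was 0.719, 0.55 and 0.345 TPM in WT and 12.2, 9.41 and 10.1 TPM in KO (2.54), and *Mmp12*, the macrophage elastase, was 0.111, 0.0199 and 0 and 7.48, 5.65 and 7.2 TPM (2.62).

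Markers of the cells that make this matrix moved in both directions. Of 20 stellate cell and myofibroblast markers 4 rose and 2 fell (or 1 without KO male 1 or WT male 1; 30% called, beside 17.5% of all genes; 8 higher and 1 lower as deposited), with a median of -0.07 (0.42 as deposited) and sums of 144 to 199 TPM in WT and 217 to 389 TPM in KO. *Cygb* of quiescent stellate cells rose by 1.45 and *Vim*, vimentin, by 1.26. *Acta2*, the smooth muscle actin of myofibroblasts, was 3.7, 2.56 and 1.74 TPM in WT and 4.55, 2.1 and 2.72 TPM in KO, and *Des*, desmin, was 2.35, 2.58 and 1.82 and 4.07, 1.49 and 3.52 TPM. Both overlapped between the genotypes (-0.26 and -0.16, limma adjusted p = 0.598 and 0.733). Among 18 endothelial markers 5 fell and 0 rose (27.8% called, beside 17.5% of all genes; 1 higher and 3 lower as deposited). *Bmp2*, an iron-regulating ligand of the sinusoid, fell from 7.07 to 2.49 TPM (-1.67) and *Dnase1l3* fell too (-1.73), while the pan-endothelial *Pecam1* was 5.03, 5.61 and 4.76 TPM in WT and 5.74, 2.99 and 9.2 TPM in KO (-0.40, limma adjusted p = 0.385).

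Inflammatory genes rose in part. Of 28 chemokine and NF-kB genes 14 rose and 0 fell (50% called, beside 17.5% of all genes; 19 higher and 0 lower as deposited). After *Cxcl14* the largest was *Tnfrsf12a*, the receptor of the cytokine TWEAK, at 9.2, 5.68 and 5.19 TPM in WT and 78.1, 65.1 and 54.4 TPM in KO (2.6 on the log2 scale, SE 0.263, limma adjusted p = 0.000518), followed by *Ccl2* (2.28; limma adjusted p 0.0559 without KO male 1) and *Ccl6* (2.25). Of 30 interferon and antigen presentation genes 8 rose, 5 without KO male replicate 1 (26.7% called, beside 17.5% of all genes; 13 higher and 0 lower as deposited, beside 33.1% of all genes higher on that scale). These included 4 genes of MHC class II presentation, *H2-Eb1*, *Cd74*, *H2-Ab1* and *H2-Aa* (1.99, 1.9, 1.82 and 1.78), and macrophage markers rose in the same libraries. Their part was not tested. The number of genes that fell was 0, or 2 without WT male 3. *Ifit1*, an interferon response gene, was 5.22, 5.74 and 5.33 TPM in WT and 4.93, 4.72 and 7.3 TPM in KO.

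In the acute phase list 5 of 28 rose and 2 fell (25% called, beside 17.5% of all genes; 14 higher and 2 lower as deposited). The rises numbered 3 without KO male 1 or WT male 1 and 9 without WT male 2, and the falls numbered 1 without KO males 1 or 3 or WT male 2 and 4 without WT male 3. *Orm2*, an acid glycoprotein, was 113, 201 and 19.6 TPM in WT and 3052, 5043 and 2737 TPM in KO (4.91 on the log2 scale, SE 0.788, limma adjusted p = 0.00455). *Saa1*, the serum amyloid gene, was 268, 2029.8 and 103 and 662, 1739 and 476 TPM, so WT male replicate 2 lay above all KO males. *Serpina3k*, a protease inhibitor, fell from 12088 ± 2916 to 2455 ± 467 TPM (-2.87). For complement and coagulation 10 of 33 were higher and 2 lower as deposited, beside 33.1% of all genes called higher on that scale. After rescaling 7 fell and 2 rose (27.3% called, beside 17.5% of all genes). The falls numbered 2 without KO male 1 and 4 without KO male 3 or WT male 3, and the rises numbered 0 without KO males 1 or 2 or WT male 1 and 1 without KO male 3 or WT male 3. *F11*, coagulation factor XI, was 62.8, 65.9 and 96.3 TPM in WT and 38, 38.5 and 39 TPM in KO (-1.48).

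Several cell cycle genes rose from low levels. Of 24 replication and mitosis genes 9 rose and 0 fell (37.5% called, beside 17.5% of all genes; 18 higher and 0 lower as deposited; medians 0.78 and 1.04). *Ccnd1*, cyclin D1, was 12.6, 14.4 and 14.8 TPM in WT and 51.9, 51.7 and 104 TPM in KO (1.6 on the log2 scale, SE 0.229, limma adjusted p = 0.00285), with KO male replicate 3 highest. *Mki67* was 0.643, 0.243 and 0.266 and 2.69, 2.15 and 2.93 TPM (1.09) and *Top2a* was 1.27, 0.453 and 0.396 and 4.07, 3.28 and 5.12 TPM (1.27). Among 18 p53 targets and cell cycle inhibitors 1 rose, *Phlda3* (1.17; 5.56% called, beside 17.5% of all genes), while 7 were called higher as deposited. Among 17 AP-1 and immediate early genes 3 rose (17.6% called, beside 17.5% of all genes; 5 as deposited), led by *Ier3* (3.18) and *Klf6* (2.41). The falls, 0 with all libraries, were 1 in either list without WT male 3. Of 20 Notch and Wnt genes 3 rose and 0 fell (or 1 without WT male 1; 15% called, beside 17.5% of all genes; 6 higher and 0 lower as deposited). *Wnt10a*, a Wnt ligand, was 0.0739, 0 and 0 TPM in WT and 11.9, 9.72 and 7.44 TPM in KO (3.09 on the log2 scale, SE 0.228, limma adjusted p = 0.000110), and *Wnt4* was 0.891, 0.68 and 0.602 and 4.01, 3.35 and 4.95 TPM (1.2).

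For several lists of core metabolism the median changed sign with the scale, while for the respiratory chain and the mitochondrially encoded genes it was below 0 on both. Medians after rescaling and as deposited were -0.56 and 0.01 for fatty acid oxidation, -0.53 and 0.04 for urea and amino acid genes, -0.47 and 0.11 for apolipoproteins, -0.27 and 0.31 for ribosomal proteins, -0.60 and -0.02 for the nuclear respiratory chain and -0.75 and -0.17 for mitochondrially encoded genes. Of 24 respiratory chain genes 4 fell after rescaling (16.7% called, beside 17.5% of all genes) and 0 as deposited, and the falls after rescaling numbered 0 without KO males 1 or 2 or WT male 1, 1 without WT male 3 and 2 without KO male 3 or WT male 2. Of the 28 ribosomal and 13 mitochondrially encoded genes 0 passed the limma test after rescaling, with 0 and 8 at an unadjusted p under 0.05, and for the latter the falls numbered 1 without KO male 1 or WT male 3. Apolipoproteins had 1 rise and 2 falls among 17 (17.6% called, beside 17.5% of all genes; 3 higher and 0 lower as deposited), and the falls numbered 0 without WT males 1 or 2 and 1 without KO males 1, 2 or 3 or WT male 3. *Rpl3* was 226, 206 and 225 TPM in WT and 299, 282 and 309 TPM in KO (-0.14 rescaled, 0.44 as deposited).

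Some metabolic genes fell on both scales. Of 27 fatty acid oxidation genes 14 fell after rescaling (or 6 without KO male 1 or WT male 1; 55.6% called, beside 17.5% of all genes) and 4 as deposited. The single rise was *Acot2*, named after its values were seen (1.26), and the rises numbered 0 without KO males 1, 2 or 3 or WT male 3 and 2 without WT male 1. *Ppara*, the receptor that controls them, was 22.4, 36.9 and 55.2 TPM in WT and 12.5, 20.9 and 15.2 TPM in KO (-1.68; -1.13 as deposited, limma adjusted p = 0.0102 and 0.0237), and its targets *Acsl1* and *Acot1* fell (-1.98 and -2.33; -1.4 and -1.85 as deposited). Of 34 urea and amino acid genes 10 fell (or 6 without KO male 1; 29.4% called, beside 17.5% of all genes), with 8 higher and 5 lower as deposited. *Hal*, histidine ammonia lyase, was 159, 119 and 148 TPM in WT and 82, 76.8 and 87.5 TPM in KO (-1.35). *Cps1*, the first urea cycle enzyme, was 1277, 1277 and 1207 and 1265, 1392 and 1653 TPM (-0.39 rescaled, 0.19 as deposited, with neither called).

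Of 26 zonation markers 6 were higher and 5 lower as deposited, beside 33.1% of all genes called higher on that scale. After rescaling 9 fell and 1 rose (38.5% called, beside 17.5% of all genes), so the balance turned with the scale. The falls numbered 5 without KO male 1, and the rises numbered 2 without WT male 3. Markers of both zones fell, with pericentral *Cyp2e1* at 5379, 5018 and 6437 TPM in WT and 1099, 2059 and 1371 TPM in KO (-2.51 on the log2 scale, SE 0.272, limma adjusted p = 0.000760), pericentral *Cyp1a2* at 796, 718 and 863 and 275, 298 and 275 TPM (-2.06) and periportal *Cyp2f2* as above. In glucose metabolism 4 of 22 rose and 1 fell (or 0 without KO males 1, 2 or 3 or WT male 1 and 2 without WT males 2 or 3; 22.7% called, beside 17.5% of all genes), with 11 higher and 0 lower as deposited. The risers were glycolytic isoforms scarce in adult hepatocytes, *Pfkp*, *Hk2* and *Pkm* (1.96, 1.78 and 1.35), and *Pfkl* (0.85), and *Hk2* was 0.168, 0.136 and 0.205 TPM in WT and 2.82, 3.82 and 5.38 TPM in KO. The gluconeogenic *Pck1* was 2319, 2494 and 2136 and 3321, 2790.2 and 1647 TPM (-0.48, limma adjusted p = 0.391).

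Of 24 genes of fatty acid synthesis and lipid storage 3 rose and 4 fell after rescaling (29.2% called, beside 17.5% of all genes), with 9 higher and 3 lower as deposited, beside 33.1% of all genes higher on that scale. *Cd36*, a fatty acid importer, was 9.42, 10.9 and 6.35 TPM in WT and 108, 107 and 121 TPM in KO (2.99 on the log2 scale, SE 0.225, limma adjusted p = 0.000121), and *Pparg*, an adipogenic receptor, was 3.28, 2.77 and 3.41 and 17.9, 19.2 and 21.6 TPM (1.81), while *Thrsp*, a lipogenic regulator, fell (-2.39). Cholesterol synthesis depended on scale, with 4 of 24 higher and 2 lower after rescaling (25% called, beside 17.5% of all genes) and 16 higher and 0 lower as deposited. The rises after rescaling numbered 0 without WT male 1, 1 without KO males 1 or 2 or WT male 3 and 2 without KO male 3, and the falls numbered 1 without KO male 1 or WT males 1 or 2. *Apoa4*, an apolipoprotein, rose evenly, from 125, 74.6 and 53.6 TPM to 566, 560.5 and 566 TPM (2.24). Of 18 unfolded protein response genes 1 fell, *Herpud1* (-1.7; 5.56% called, beside 17.5% of all genes), or 4 without WT male 3.

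**Figure D5:**
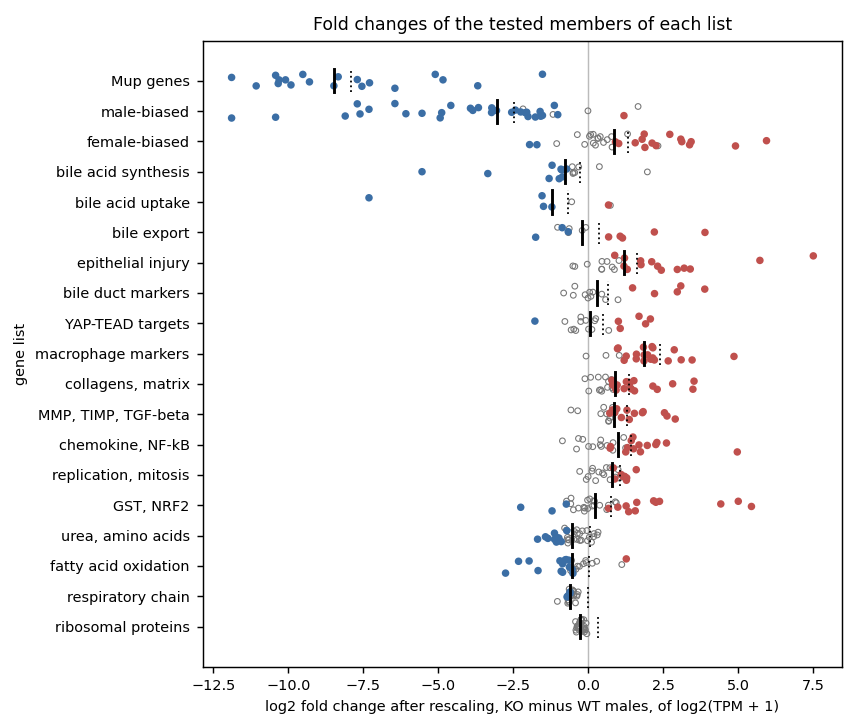
Log2 fold change after rescaling (horizontal axis) of each tested member of 19 gene lists (vertical axis); filled points passed a limma adjusted p of 0.05 (red higher, blue lower in KO males) and open ones did not. Thick bars are list medians after rescaling and dotted bars as deposited: the *Mup* median is -8.49, the macrophage median 1.86, and the dotted bar stands at or right of 0 for fatty acid oxidation (0.01) and ribosomal proteins (0.31).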

How the data were processed

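Flash-frozen livers were extracted with Trizol and RNeasy columns with DNase, and total RNA was sequenced by a commercial provider, per the labels' protocols. The deposited values are TPM, computed by the authors, and each column is named TPM per the file headers and sums to the same total. GRCm38 and edgeR are named in the submitters' processing notes, and the aligner, counter and use of strand are not given in the sources used here.

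The 12 libraries were mapped to groups by sex and genotype in their labels, and replicates were numbered in accession order. Male libraries were divided by median-of-ratios size factors (R 4.3.3), and log2(TPM + 1) was tested with limma 3.58.1 (intensity trend, Benjamini-Hochberg over 12076 genes, threshold 0.05, mean of at least 0.5 TPM). The interaction used 4 group means over 12 libraries. The code was tested on simulated data. Alternatives were the deposited scale, scaling without the 20 most abundant genes, pseudocounts of 0.1 and 5, other filters, no trend, all 12 libraries, and leaving out each library. Members and gene lists were chosen with earlier results of these data known, and some genes belong to several lists. Genes named are *Yap1*, Y-linked genes, the 8 largest non-overlapping changes each way called on both scales, up to 4 leading and the first 2 members of each list, and 5 interaction genes each way; others are marked as named after their values were seen. Gene positions are from GENCODE M21 (GRCm38), matched by identifier.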

Additional observations from a re-analysis of the deposited data

Results flagged for a closer look

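The KO minus WT difference was compared between males and females over the 12 libraries, as the male difference less the female one on the log2 scale. *C6* and *Mup20* were measured above the floor in all 4 groups, and the value was negative for *C6* (-3.71, SE 0.265, limma adjusted p = 4.99e-06) and *Mup20* (-5.20, SE 0.412, limma adjusted p = 1.40e-05). Both were higher in KO than in WT females, where the differences in males were -0.01 and -1.53. For 3 more negative values the floor limits what could be measured in females: *Mup12* (-4.96, SE 0.252, limma adjusted p = 1.60e-07), which was listed at 0 in KO females, and *Cyp4a12b* (-5.18, SE 0.349, limma adjusted p = 2.88e-06) and *Cyp4a12a* (-6.24, SE 0.443, limma adjusted p = 4.96e-06), which were near 0 in WT females. *Cyp4a12b* was nevertheless higher in KO than in WT females and fell in males (-3.85). The 5 positive values are not evidence of a difference in response: *Sult3a1* (8.08, SE 0.173, limma adjusted p = 4.07e-11), *Cyp3a44* (7.99, SE 0.261, limma adjusted p = 3.45e-09), *Cyp3a41b* (7.32, SE 0.247, limma adjusted p = 3.45e-09), *Sult3a2* (4.61, SE 0.186, limma adjusted p = 1.90e-08) and *Cyp2b13* (6.84, SE 0.277, limma adjusted p = 1.90e-08). These female-typical enzymes were near 0 in all males, so no fall could be measured there, the floor fixed the sign, and the values mostly restate their fall in females.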

How the results depend on the processing

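For the count of genes changed in males, the scale moved the value most. As deposited, 4289 genes passed, 3993 higher and 296 lower, and 1624 of the 2109 genes were called in the same direction, the rest lost the call and 0 were called in the opposite one. Scaled without the 20 most abundant genes, 3492 passed, 3166 higher and 326 lower. *Cyp3a13*, *C1s1* and *Mdm2* had small negative differences that did not pass after rescaling (-0.02, -0.11 and -0.04) and were called higher as deposited (0.55, 0.46 and 0.51). With a mean of at least 5 TPM, where fewer genes were tested, 1221 passed (618 higher). With all 12 libraries in the fit, 1259 were lower, and adding a fold change of at least 1 on the log2 scale left 1177. Without single libraries 1256 to 1889 passed, 844 to 1168 higher and 412 to 721 lower, with the fewest without KO male 1 (1238 of them shared with all 6). The interaction count was 82 to 175, 44 to 88 positive and 36 to 87 negative, with the most without WT male 3 and 112 as deposited, and *Yap1* ranged from -4.39 to -4.11. The cause of these changes was not tested. Of 218 genes named in males, 192 had the same call as deposited or were called on neither scale. Genes called on neither scale could change sign, as *Cps1* did. No paired analysis was possible because the labels give animal numbers and no replicate number shared between groups. TPM hold no depth, so low values carry an unknown counting error, and 3 animals per group limit what could be detected.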

Other observations

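Among 19 tested markers of hepatocytes, 2 secreted products fell in KO males and 1 rose (15.8%, near the 17.5% called over all genes; 3 higher and 2 lower as deposited). The rise was *Hpx* (1.22), whose call was lost without KO males 1 or 2 or WT males 1 or 3. *Ttr*, the thyroid hormone carrier transthyretin, was 9861, 5478 and 7654 TPM in WT and 3851, 3083 and 2105 TPM in KO (-1.93), and *Serpina1c*, an alpha-1-antitrypsin gene, was 15481, 14271 and 11449.8 and 3443, 3435 and 3644 TPM (-2.54). *Alb* itself was 67368, 57509.8 and 54248 TPM in WT and 61968, 42088 and 67819 TPM in KO (-0.66, limma adjusted p = 0.250). Male-biased genes outside the families above, named after their values were seen, included *Selenbp2* (-4.94), *Serpina1e* (-7.61) and *Susd4* (-4.89).

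Some WT males stood apart from each other in stress and acute phase genes. *Jun*, an AP-1 subunit, was 261, 145 and 8.35 TPM in WT and 199, 368 and 147 TPM in KO, and *Hspa5*, the endoplasmic reticulum chaperone, was 1098, 1023 and 239.7 and 584, 382 and 1229 TPM. WT male replicate 3 was the lowest WT male for both. *Saa2*, a serum amyloid gene named after its values were seen, was 104, 1495 and 33.7 TPM in WT and 399, 987 and 296 TPM in KO, with WT male replicate 2 highest of the WT males.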
